A study of Saccharomyces cerevisiae with 6 samples.

Results

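The proteasome genes of the yeast Saccharomyces cerevisiae were examined together with RPN4, the gene of the transcription factor that drives them. Of 6256 genes with a probe on the array, 35 were members: 14 genes of the 20S core particle, 18 of the 19S regulatory particle (10 of its base and 8 of its lid), the core assembly factor gene UMP1, the activator cap gene BLM10, and RPN4. The genes were chosen by their annotated place in the complex, with the difference in processed signal between the strains already in view. Their strain differences are therefore given as a description, without a test. All 35 probes were found by locus tag, and all were well above background on every array.

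The 26S proteasome is the protease that breaks down ubiquitin-tagged proteins. Its core is a barrel of stacked alpha and beta rings whose active sites face an inner chamber, and its regulatory particle binds, unfolds and feeds in the substrates. In yeast, Rpn4 binds a promoter element shared by most proteasome genes and is itself a short-lived substrate of the proteasome, which closes a feedback loop.

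RNA came from BY4741, a laboratory strain, labelled as wild type (control) or as carrying a deletion of PHO80, the cyclin gene of the Pho85 kinase of phosphate signalling. Both were sampled after 6 h of fermentation in medium with 80 g/l xylose. Each strain had 3 one-colour arrays on a slide of its own, and the effects of slide and strain cannot be told apart. No label says that the replicates were separate cultures, so SE and p-values measure the spread between these samples only, which may be technical.

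Levels below are log2 processed signal after subtraction of the 75th percentile of each array, which lay between 2404 and 5011 intensity units. The check of the deletion held on every array. PHO80 read -2.93, -2.83 and -2.86 in the controls. None of the 3 deletion arrays had it well above background, and it was at least 27.4-fold lower there (limma, adjusted p = 0.00153). That bound sets its control mean against the lowest signal well above background on the deletion arrays. URA3, a marker gene that BY4741 is known to lack, was well above background on every array, at 3.74 to 3.79 in wild type and at 5.55 to 6.11 with the deletion. The part of marker genes in the results was not tested. Deletion arrays 1 and 3 were as close as repeated spots of one array (median squared difference over the spot variance 0.412, where spot noise alone gives 0.484), as were wild-type arrays 1 and 3 (0.435), and each such pair, differing by less than sampling noise, was counted as 1 sample. Deletion array 2 stood far from the others (88.6 and 94.8), while wild-type array 2 lay close to its companions (0.634 and 0.669). That leaves 2 samples per strain. Values for deletion array 2 are given apart below.

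Most proteasome genes had a higher signal in the deletion strain. The 32 subunit genes had a median log2 fold change of 0.64, where all 5863 genes tested had a median of -0.28, and 30 of the 32 lay above that median. Because the scaling between arrays sets the zero, class medians below are also given relative to all genes, which puts the subunits at 0.92. The 19S regulatory particle lay at 1.15 and the 20S core at 0.71 on that scale. By class the order was base (1.28), alpha ring (0.99), lid (0.87) and beta ring (0.56).

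Of the 35 members, 17 were called higher by limma at an adjusted p under 0.05 and 1 lower, beside 19.2% and 34.6% of all genes tested. On 24 members all 3 deletion arrays lay above all 3 wild-type arrays and on 3 all lay below, beside 31.1% and 50.9% of all genes. These counts describe the members and are no test of them, since the choice of members had this contrast in view. They also depend on which samples enter. Without wild-type array 2, or with all wild-type arrays as 1 sample, most higher calls of members were lost. The share of members called higher was then no larger than that of all genes. Without deletion array 2 it was larger, but the spread there is near spot noise. These 3 fits leave 1 sample in a strain, so their calls cannot be weighed. The base median relative to all genes was 1.26, 1.27 and 1.14 in them. With quantile normalization 18 members were called higher, beside 1615 of the 5863 genes tested. The medians relative to all genes shrank there to 0.93 (base), 0.47 (alpha ring), 0.42 (lid) and 0.18 (beta ring). The order of the 4 classes was the same in all 17 alternatives that refitted the values. Median centring, the variance model and the filters on dim probes cannot change that order, so they are no check of it. Leaving out 1 array of a merged pair changes the values little. Alpha ring and lid were level at 0.91 with 6 separate arrays.

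**Figure D1:**
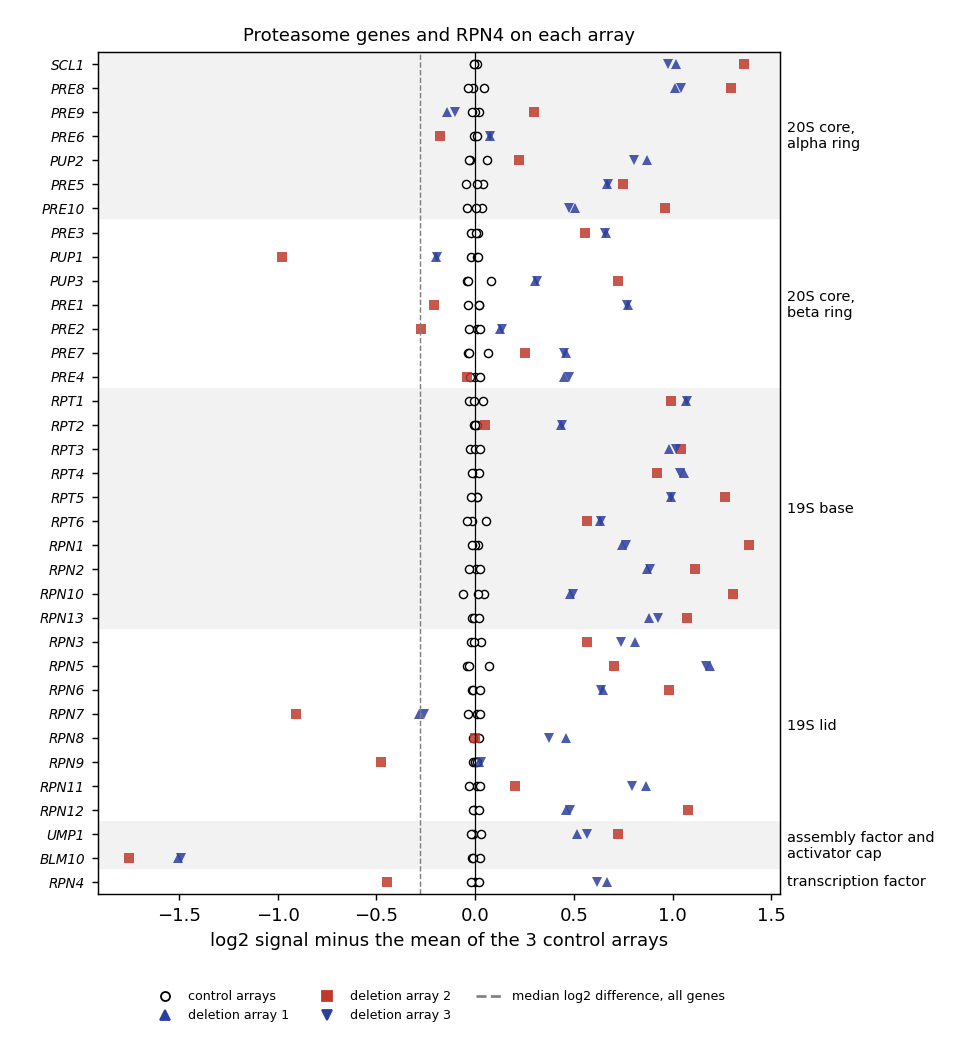
Signal of each member on each array, as log2 signal minus the mean of the 3 control arrays (x axis), with genes on the y axis grouped by their place in the complex. The control arrays sit at 0 within 0.12 of each other. The 10 base genes lie to the right on every deletion array, beside 31.1% of all genes with all deletion arrays above all control arrays. Deletion array 2 (squares) departs from deletion arrays 1 and 3 (triangles) for RPN4, PRE1 and PUP1.

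**Figure D2:**
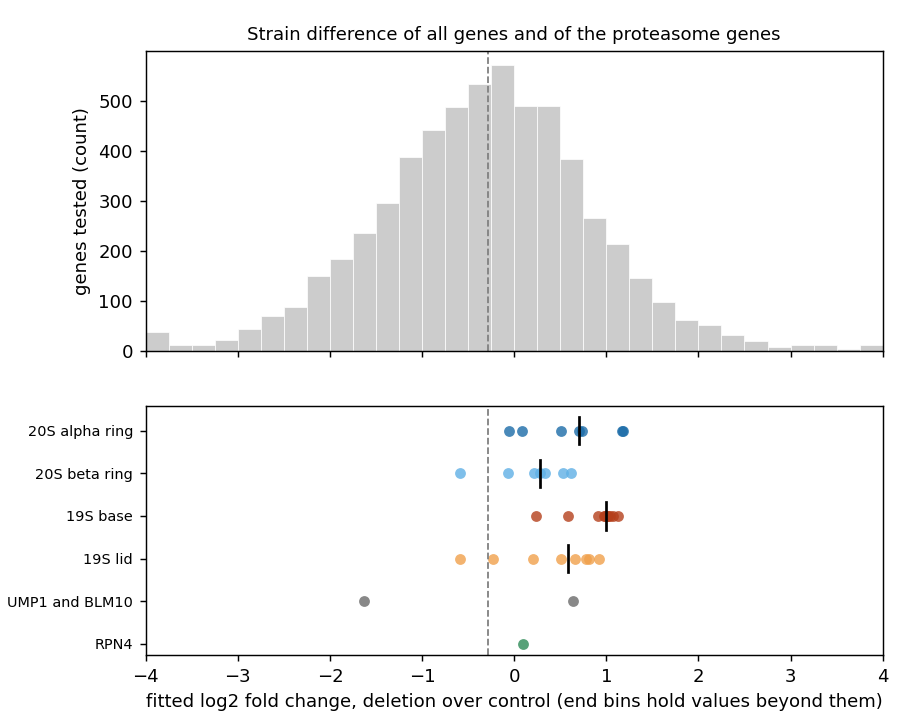
Fitted log2 fold change of all 5863 genes tested (upper panel, count per bin of 0.25) and of the members by class (lower panel, 1 point a gene, black bars at the class median). The dashed line marks the median of all genes at -0.28, and the base genes lie between 0.24 and 1.13 while the beta ring genes spread from -0.59 to 0.61.

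The alpha ring forms the outer gate of the core. SCL1, which encodes its first subunit, read 0.88, 0.87 and 0.86 on the wild-type arrays and 1.89, 2.23 and 1.84 on the deletion arrays. Its log2 fold change of 1.18 ± 0.17 (SE, here and below from the fit on 2 samples per strain) was the highest of all members. PRE8 was close behind, at -0.19, -0.21 and -0.14 in wild type and 0.83, 1.11 and 0.86 with the deletion (1.17 ± 0.14). In both genes the strains were well apart on every array.

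PRE10 (0.73 ± 0.20), PRE5 (0.71 ± 0.11) and PUP2 (0.51 ± 0.24) were also higher on all deletion arrays. PUP2 read 0.92 and 0.85 on deletion arrays 1 and 3 but 0.27 on array 2, against 0.01 to 0.11 in wild type. PRE9, the one core subunit gene that yeast can live without, and PRE6, whose product can take its place, had the smallest differences of the ring (0.09 ± 0.19 and -0.05 ± 0.14). For PRE9 the wild-type arrays read 2.75, 2.73 and 2.72 and the deletion arrays 2.59, 3.03 and 2.63. PRE6 went the other way, with 1.14, 1.14 and 1.15 in wild type and 1.22, 0.96 and 1.22 with the deletion. For both genes the 2 deletion samples thus fell on opposite sides of wild type.

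The beta ring carries the active sites, and the fitted differences of its genes had both signs. PRE3, which encodes the caspase-like site, was higher on all deletion arrays (1.44, 1.33 and 1.43, against 0.79, 0.76 and 0.78 in wild type), with a log2 fold change of 0.61 ± 0.11. PUP1, which encodes the trypsin-like site, was lower on all of them. It read -0.52, -1.30 and -0.52 against -0.35, -0.32 and -0.31, a difference of -0.59 ± 0.30. PRE2, which encodes the chymotrypsin-like site, read 0.94, 0.54 and 0.95 against 0.82, 0.78 and 0.84 (-0.07 ± 0.18). With this scaling the 3 catalytic subunit genes did not share a direction, but neither PUP1 nor PRE2 was called. Relative to all genes PRE3 lay at 0.89, PRE2 at 0.22 and PUP1 at -0.31. Without deletion array 2 PUP1 lay at 0.05 on that scale, so all 3 were then above the median of all genes.

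Among the other beta subunit genes, PUP3 (0.53 ± 0.18) and PRE7 (0.34 ± 0.13) were higher on every deletion array. PRE1 read 1.46 and 1.46 on deletion arrays 1 and 3 but 0.48 on array 2, against 0.65, 0.71 and 0.71 in wild type, and its fitted difference was 0.28 ± 0.36. PRE4 had the same pattern on a smaller scale (0.64 and 0.67, but 0.15 on array 2, against 0.17 to 0.22), with 0.22 ± 0.21. On deletion array 2 alone the beta ring median was 0.28 relative to all genes, and without that array it was 0.68.

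The base of the regulatory particle holds the ring of ATPases that unfolds substrates and the large scaffold and receptor subunits. All 10 of its genes were higher on every deletion array than on any wild-type array, beside 31.1% of all genes tested. The differences of the 10 base genes from wild type ran from 0.44 to 1.07 on deletion arrays 1 and 3. On array 2 they ran from 0.05 to 1.39. Of the 6 ATPase genes, RPT5 (1.13 ± 0.14), RPT1 (1.04 ± 0.11), RPT3 (1.02 ± 0.10) and RPT4 (0.98 ± 0.11) were close to a doubling of signal. RPT3 read -0.38, -0.36 and -0.33 in wild type and 0.63, 0.69 and 0.66 with the deletion, so the deletion samples gave nearly the same difference.

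RPT6 had a smaller difference (0.59 ± 0.12), with -1.84, -1.77 and -1.86 in wild type and -1.19, -1.26 and -1.19 with the deletion. RPT2 had the smallest difference of the base (0.24 ± 0.17). It read 0.39, 0.40 and 0.39 in wild type, 0.83 and 0.83 on deletion arrays 1 and 3, and 0.44 on array 2. The ATPases assemble as pairs, Rpt1 with Rpt2, Rpt3 with Rpt6 and Rpt4 with Rpt5. Of the 3 pairs, RPT4 and RPT5 were closest to each other in their differences, and RPT1 and RPT2 were farthest apart.

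RPN1 and RPN2, which encode the large scaffold subunits, had log2 fold changes of 1.07 ± 0.25 and 1.004 ± 0.13. The ubiquitin receptor genes RPN10 and RPN13 lay at 0.91 ± 0.31 and 0.99 ± 0.12. RPN10 read 1.78, 1.67 and 1.75 in wild type and 2.22, 3.04 and 2.23 with the deletion. Its excess of 0.82 on deletion array 2 over arrays 1 and 3 was the largest excess among members. Of all genes tested, 1.42% had an excess at least as large, and 12.4% differed as much in either direction.

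The lid removes ubiquitin chains and holds the particle together. RPN11, which encodes its deubiquitinating enzyme, read 2.32, 1.66 and 2.25 on the deletion arrays against 1.46, 1.48 and 1.43 in wild type (0.51 ± 0.25). RPN8, which encodes the partner of Rpn11, read 3.03, 2.57 and 2.95 against 2.56, 2.59 and 2.56 (0.21 ± 0.19). Both differences came mostly from deletion arrays 1 and 3.

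RPN5 (0.93 ± 0.20), RPN6 (0.81 ± 0.16), RPN12 (0.78 ± 0.24) and RPN3 (0.66 ± 0.13), which encode structural lid subunits, were higher on every deletion array. RPN7, another structural subunit gene, was lower on every deletion array, with -0.998, -1.62 and -0.97 against -0.75, -0.70 and -0.69 in wild type (-0.59 ± 0.25). RPN9 read 1.17, 0.68 and 1.18 against 1.14, 1.15 and 1.16 (-0.23 ± 0.21). RPN7 and PUP1 were the only subunit genes below the median of all genes. RPN9, PRE2 and PRE6 were below 0 but above that median, and under quantile normalization each of these lay below it, as did PRE9 and RPN8.

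The remaining members are a helper and a cap of the core. UMP1, which encodes the chaperone that is digested once the core has closed, read -0.52, -0.53 and -0.48 in wild type and 0.00, 0.21 and 0.05 with the deletion (0.64 ± 0.12). BLM10, which encodes a protein that caps the core in place of the regulatory particle, went the opposite way. It read -4.25, -4.21 and -4.25 in wild type and -5.74, -5.99 and -5.72 with the deletion. Its log2 fold change of -1.63 ± 0.17, a level 0.323 times that of wild type, was the lowest of the members. It was the member with the widest spread between repeated spots (SD up to 0.276), and its difference was -0.96 with normexp background correction and -0.64 with quantile normalization.

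RPN4 itself did not give a single answer. Wild type read 0.44, 0.46 and 0.42. Deletion arrays 1 and 3 read 1.11 and 1.05, above all wild-type arrays, and deletion array 2 read -0.01, below all of them. The fitted log2 fold change was 0.09 ± 0.40. It was 0.64 without deletion array 2 and -0.45 when that array alone stood for the deletion strain. The drop of 1.09 from arrays 1 and 3 to array 2 was the largest among members in either direction, and 6.26% of all genes tested differed as much.

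**Figure D3:**
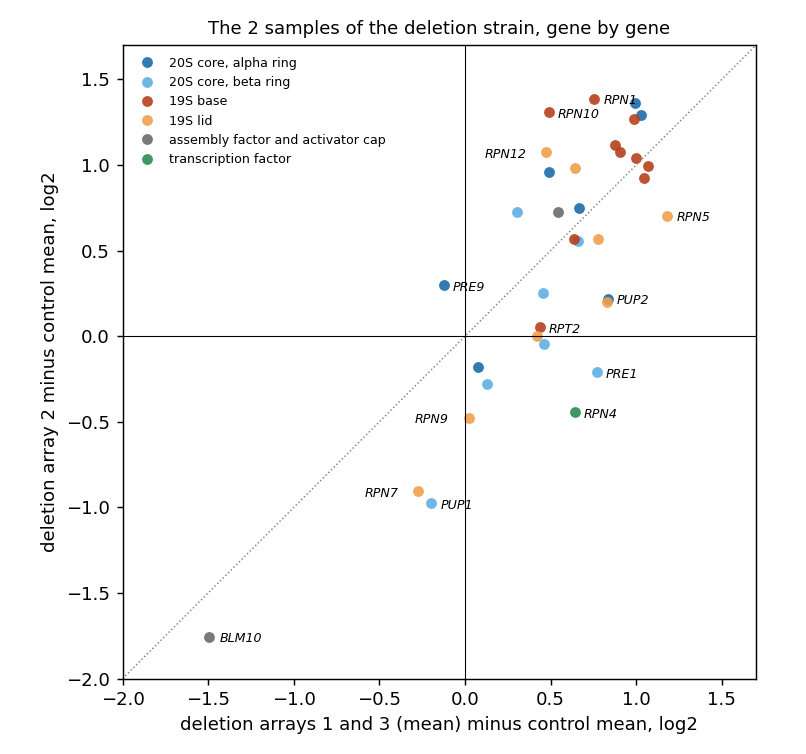
Difference from the control mean (log2) in deletion arrays 1 and 3 (x axis, their mean) and in deletion array 2 (y axis), 1 point a member, coloured by class. Both axes subtract the same control mean, so points share that part. The dotted line marks equal values, and RPN4 and PRE1 lie below it at 0.64 and 0.77 on the x axis and -0.44 and -0.21 on the y axis.

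The 2 samples of the deletion strain differed for many members. Relative to arrays 1 and 3, array 2 was lower for 6 of 7 beta ring genes (median -0.41) and for 6 of 8 lid genes (median -0.45). It was higher for 5 of 7 alpha ring genes (median 0.26) and for 6 of 10 base genes (median 0.11). Over all genes the median shift was 0.02, and its size without regard to sign had a median of 0.385, as it did over the members. For 7 members (PRE1, PRE2, PRE4, PRE6, PRE9, RPN4 and RPN9) the deletion samples lay on opposite sides of wild type, which was so for 15.4% of all genes. The wild-type arrays differed from each other by at most 0.12 on any member.

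Members that lie near each other on a chromosome were compared, since the choice of members did not use position. RPT4 and RPN8 flank GCD1, and PRE4 and RPN12 flank RET2. Their log2 fold changes were 0.98 and 0.21, and 0.22 and 0.78. The 68 other genes directly beside a member had a median log2 fold change of -0.22, close to that of all genes. Of these neighbours 10 were called higher and 18 lower (14.7% and 26.5%, beside 19.2% and 34.6% of all genes).

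**Figure D4:**
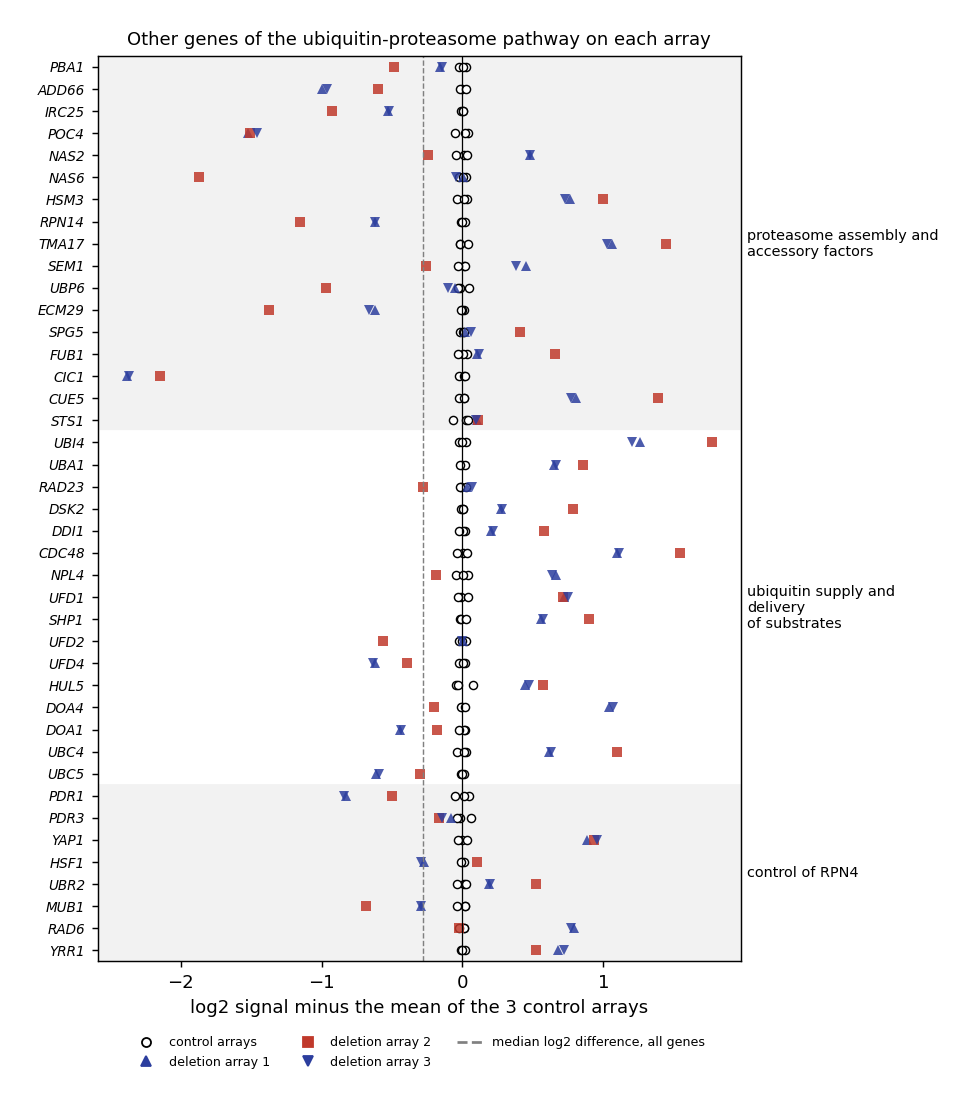
Signal of 41 other genes of the pathway on each array, as log2 signal minus the mean of the 3 control arrays (x axis), grouped by list. CIC1 and POC4 lie far to the left on every deletion array, and UBI4, CDC48 and TMA17 lie to the right on all of them.

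Genes of assembly factors and accessory proteins that are no members of the set changed in both directions. Of 17 assembly and accessory genes tested, 3 were higher and 6 lower by limma (17.6% and 35.3%, near the shares of all genes), and the list's median lay at -0.04 once that of all genes was subtracted. CIC1, whose product binds the proteasome and also takes part in ribosome assembly, fell by 2.26 ± 0.14 on the log2 scale (adjusted p = 0.00265). POC4, which encodes one member of a chaperone pair of the alpha ring, fell by 1.49 ± 0.12 (adjusted p = 0.00326). TMA17, an ATPase assembly chaperone gene, rose by 1.25 ± 0.18 (adjusted p = 0.00916). CUE5, the gene of an autophagy receptor for ubiquitin-tagged proteins, rose by 1.09 ± 0.24 (adjusted p = 0.0244), a call lost without wild-type array 2 (adjusted p = 0.0559).

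Alpha ring chaperones are encoded by 4 genes of this list. Beside POC4, its partner gene IRC25 read -0.89, -0.88 and -0.88 in wild type and -1.41, -1.81 and -1.41 with the deletion. ADD66, of the other alpha ring pair, read -1.05, -1.06 and -1.02 against -2.04, -1.64 and -2.01. These 2 and PBA1, the partner of ADD66, were picked after their values were seen. IRC25 and ADD66 were called lower (-0.73 and -0.78, adjusted p = 0.033 and 0.0262), and PBA1 was at -0.32 (adjusted p = 0.158). Relative to all genes IRC25 lay at -0.44, ADD66 at -0.50 and PBA1 at -0.04. The calls of IRC25 and ADD66 were lost with median centring and without wild-type array 2, where only CIC1 and POC4 stayed lower. Without wild-type array 2 the list had 1 higher and 2 lower genes, and with median centring 3 and 2.

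Of 16 genes that supply ubiquitin and deliver substrates, 7 rose and 1 fell (43.8% and 6.25%, beside 19.2% and 34.6% of all genes), and their median lay 0.74 above that of all genes. The stress-induced polyubiquitin gene UBI4 read 3.33, 3.28 and 3.30 in wild type and 4.56, 5.07 and 4.51 with the deletion. It rose by 1.51 ± 0.23 (adjusted p = 0.0103), although other ubiquitin genes share its sequence and its probe may bind their transcripts. CDC48, the gene of the ATPase that pulls tagged proteins out of complexes, rose by 1.33 ± 0.20 (adjusted p = 0.00977). The ubiquitin-conjugating enzyme gene UBC4 rose by 0.87 ± 0.20 (adjusted p = 0.029) and UBA1, the ubiquitin-activating enzyme gene, by 0.75 ± 0.12 (adjusted p = 0.0127). Without wild-type array 2, which leaves 1 sample in wild type, most calls of the list were lost, as were many of all genes. The calls of UBC4 and UBA1 were among those lost. CIC1, POC4, TMA17, UBI4 and CDC48 kept their calls in all 17 alternatives, several of which could hardly remove a call. Leaving out 1 array of a merged pair changes the values little. Without deletion array 2, or with it alone for the deletion strain, the spread is near spot noise and most genes are called.

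Of 8 genes known to act on RPN4, 2 rose and 1 fell (25.0% and 12.5%, beside 19.2% and 34.6% of all genes). With quantile normalization 4 were higher and 0 lower, beside 1615 and 1445 of the 5863 genes. YAP1, an activator of RPN4 in oxidative stress, rose by 0.93 ± 0.10 (adjusted p = 0.00556) and read 0.56, 0.54 and 0.60 in wild type against 1.45, 1.497 and 1.52 with the deletion. YRR1, a zinc cluster regulator gene of drug resistance, rose by 0.61 ± 0.13 (adjusted p = 0.023). PDR1, a drug resistance regulator that activates RPN4, fell by 0.65 ± 0.16 (adjusted p = 0.0327) but was not called with median centring or quantile normalization (adjusted p = 0.202 and 0.0632). All 3 lost their calls without wild-type array 2 (adjusted p = 0.115, 0.354 and 0.259).

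PDR3, a relative of PDR1, was at -0.16 ± 0.13 (adjusted p = 0.356; 0.61 and adjusted p = 0.0213 with quantile normalization) and the heat shock factor gene HSF1 at -0.09 ± 0.17 (adjusted p = 0.683). Rpn4 is marked for destruction by the ubiquitin ligase Ubr2 with its partner Mub1 and the conjugating enzyme Rad6. UBR2 was at 0.35 ± 0.16, MUB1 at -0.49 ± 0.18 and RAD6 at 0.38 ± 0.30 (adjusted p = 0.135, 0.0909 and 0.348 by limma). RAD6 read 0.76 and 0.74 on deletion arrays 1 and 3 and -0.05 on array 2, against -0.06 to -0.02 in wild type. Like RPN4, it was higher on arrays 1 and 3 alone.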

How the data were processed

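Cy3-labelled material from 3 control and 3 PHO80-deletion samples was hybridised to one-colour Agilent yeast arrays, per the labels. Agilent Feature Extraction 10.1.1.1 (per the file headers and the submitters' processing notes) made the deposited intensity values, which are linear, background-subtracted within the array and not scaled between arrays. The authors' deposited value table holds 1 intensity per probe, with scale, centring and direction unstated. Against the scanner values it was linear and uncentred (r of log2 values 0.997 to 0.999 across probes, column medians 1120, 1140 and 950.5 for the controls and 1120, 746.5 and 1670 for the deletion).

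Flagged spots (1.12% to 1.88%) were left out, and log2 signal less the 75th percentile was averaged over the 6 or 7 spots of a probe. Symbols came from RefSeq R64. Coordinates are not printed, and promoter, probe and protein sequences were not used here. Genes above background on at least 3 of 6 arrays (5863) were tested with limma 3.58.1 in R 4.3.3 (lmFit, eBayes with a trend, Benjamini-Hochberg, adjusted p under 0.05), with 2 samples for each strain (residual degrees of freedom 2, prior 1.93). The fit was checked on simulated data with the same spread in both strains and few changed genes. Here the median range over all genes tested was 0.05 in wild type and 0.40 with the deletion. The check does not cover such unequal spread, or calls on so many genes. The number of arrays limits the precision.

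The members, lists and the merging of arrays were chosen with earlier results of these data known. The lists hold 42 names, of which ADC17 and TMA17 are 1 gene. Named by rule were all members, PHO80, up to 4 called genes with the largest change in each of the first 2 lists, and all 8 genes of the list on RPN4. Alternatives covered scaling, background correction, dim probes, the variance model, samples, the replicate block, left-out arrays, the value table and fold size. The normexp alternative used the median spot signal in place of the mean signal. Figures were drawn with matplotlib 3.10.9.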

Additional observations from a re-analysis of the deposited data

How the results depend on the processing

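Class medians relative to all genes, RPN4 and counts of calls were recomputed in 17 alternatives. With quantile normalization the class medians fell to 0.47 (alpha ring), 0.18 (beta ring), 0.93 (base) and 0.42 (lid). The median of all genes moved from -0.28 to 0.03 there and under median centring, as both scalings set the array medians equal. The cause of the fall of the class medians was not tested. Under these scalings the shares of higher genes among all calls also moved, with 1573 higher and 1494 lower under median centring and 1615 and 1445 under quantile normalization, against 1123 and 2029. Assembly genes called lower numbered 2 (median centring) and 3 (quantile), and genes acting on RPN4 called higher numbered 4 with quantile normalization. With median centring no delivery gene was called lower (0), and neither scaling called a gene acting on RPN4 lower (0). PDR3 turned to 0.61 with quantile normalization.

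With all wild-type arrays as 1 sample 519 genes were higher and 1130 lower, 3 members were higher, assembly genes had 1 higher and 2 lower, delivery genes 2 and 0, and genes acting on RPN4 0 and 0. With 6 separate arrays 3 delivery genes and 2 genes acting on RPN4 were lower, as with the replicate block. Deviations of same-numbered arrays correlated at -0.12, -0.08 and 0.01. As the wild-type arrays differed by amounts near spot noise, these correlations cannot tell whether same-numbered arrays were paired. In the fit with the block 23 members were higher and 1 lower, beside 1485 and 2486 of all genes. Without the block the members had the same counts, beside 1596 and 2629 of all genes. The value table called 0 delivery genes lower, and 654 higher and 1411 lower genes were at least 2-fold.

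Leaving out 1 array at a time gave 523 to 2200 higher and 1122 to 3289 lower genes, 3 to 30 higher and 1 to 4 lower members, base medians of 1.14 to 1.29 and lid medians of 0.80 to 0.88. Assembly genes ran from 1 to 7 higher and 2 to 8 lower, delivery genes from 2 to 11 and 0 to 3, and genes acting on RPN4 from 0 to 4 and 0 to 4. The lowest and highest counts of all genes and of higher members came without wild-type array 2 and without deletion array 2. Such fits leave 1 sample in a strain, which is assumed to vary like the other strain, and without deletion array 2 the spread is that of wild type alone, near spot noise.

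An alternative added after seeing the data kept deletion array 2 alone, which leaves 1 sample in the deletion strain. Its spread is also that of wild type alone, near spot noise, so its counts of calls cannot be weighed. On that array the 16 delivery genes had a median difference from wild type of 0.57. The alternative put the base at 1.38 and the alpha ring at 1.07 relative to all genes. It left 30 of the 34 members other than RPN4 above the median of all genes. It gave 2145 higher and 3367 lower genes, a beta ring median of 0.28, a lid median of 0.70, 8 lower members, 6 higher and 11 lower assembly genes, 7 lower delivery genes, and 4 higher and 3 lower genes acting on RPN4, with HSF1 at 0.10. A planned search for a promoter element was not run, as promoter sequence was not used here. All members were well above background, but the size of the difference of BLM10 moved with background correction (-0.96 with normexp against -1.63).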
